A study of Mus musculus with 4 samples.

Results

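Neutrophils carry their antimicrobial proteins ready-made in granules and in the cytosol. Read here were 8 genes of these proteins and of a neutrophil growth factor receptor: Ltf, Ngp, S100a8, S100a9, Camp, Mpo, Elane and Csf3r. All were read in gonadal white adipose tissue (WAT) of male mice. They were chosen by gene symbol, and each was found with 1 probe set, so that all 8 members stand for 8 of 20239 named genes on the array. The FD pool held RNA of 3 male NMRI mice (an outbred stock) that received a fat diet with 18% fat for 8 days from the age of 40 days. The ND pool held RNA of 3 age matched males that stayed on the normal diet with 3.3% fat. All were 48 days old when the gonadal fat pads were taken. Each pool was hybridised to 2 Affymetrix mouse gene arrays, which repeat the labelling and hybridisation but not the animals. Since each diet is represented by a single pool of RNA, no p-value is given, and what the fat diet did cannot be told apart from any other difference between the pools.

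Granules are filled in the bone marrow in a fixed order. Azurophil granules come first and hold myeloperoxidase (Mpo) and neutrophil elastase (Elane), specific granules follow with lactoferrin (Ltf), neutrophilic granule protein (Ngp) and the cathelicidin precursor (Camp), and gelatinase granules come last. S100a8 and S100a9 together form calprotectin, a metal binding complex of the neutrophil cytosol, and Csf3r is the receptor for the granulocyte growth factor G-CSF. Circulating neutrophils have largely stopped making granule transcripts, while S100a8, S100a9 and Csf3r continue to be transcribed in them. Lactoferrin, which binds iron, is also secreted by epithelia, among them those of mammary gland, uterus and the male genital tract of mice.

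Values are log2 expression values from RMA, which removes background, makes arrays comparable and sums up each probe set in 1 value, so that a step of 1 is a doubling. Genes were called higher or lower in FD if 3 conditions held. The FD mean had to differ from the ND mean by 1.5-fold or more (0.58 in log2), both FD arrays had to lie on the same side of both ND arrays, and the overall mean of the 4 arrays had to reach 6. All 8 members passed this filter on the level. Of 18211 probe sets that passed it, 4.28% were called lower and 1.33% were called higher in FD.

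Ltf and Ngp were lower in FD, and none of the other 6 members was called in either direction. Ltf had log2 values of 8.51 and 8.61 on the FD arrays, against 10.19 and 10.19 on the ND arrays. Ngp had 6.41 and 6.32 on the FD arrays, against 7.99 and 7.99 on the ND arrays. For both genes the arrays of the diets lay far apart, and the lowest ND array exceeded the highest FD array by 1.57 for Ltf and by 1.58 for Ngp. The mean of Ltf was 8.56 ± 0.071 in FD and 10.19 ± 0.00018 in ND (SD over the 2 duplicate arrays of a pool). That of Ngp was 6.36 ± 0.065 in FD and 7.99 ± 0.0040 in ND. The ND duplicates were 0.00026 apart for Ltf and 0.0057 apart for Ngp, closer than the median gap of 0.10 over all tested probe sets. These small ND SDs are therefore no measure of the usual precision of the arrays. The log2 difference between FD and ND was -1.63 for Ltf and -1.62 for Ngp, in both cases 3.08-fold lower expression in FD. A difference at least as negative was found in 174 of the 18211 probe sets for Ltf and in 175 for Ngp, or 0.955% and 0.961%. In RNA of whole tissue, fewer cells of a type and less RNA per cell cannot be told apart.

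**Figure D1:**
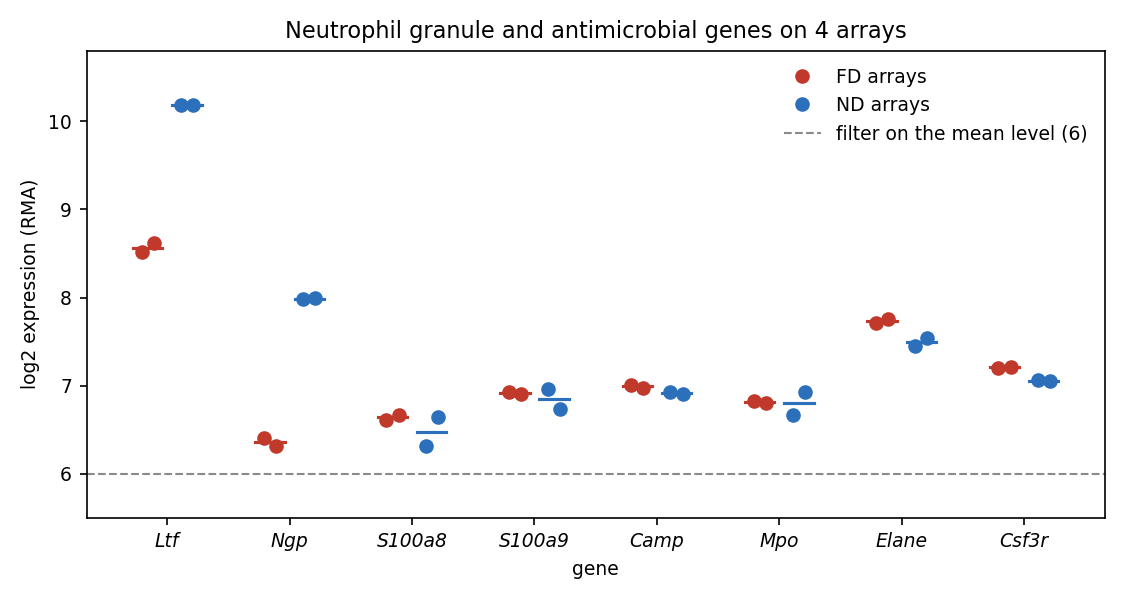
Log2 expression (RMA) of the 8 members on the 2 FD arrays (red, left of each pair) and the 2 ND arrays (blue, right). Points are arrays, short lines are means of 2 arrays of 1 RNA pool, and the dashed line is the filter at 6; Ltf and Ngp lie lower on both FD arrays than on both ND arrays by more than 1.5, and the diet means of the other 6 genes differ by at most 0.24.

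In the mouse assembly GRCm38.p6, Ltf, Ngp and Camp all lie on chromosome 9, S100a8 and S100a9 are neighbours on chromosome 3, and Mpo, Elane and Csf3r lie on chromosomes 11, 10 and 4. The 250 bases before the RefSeq start sites of Ltf, Ngp and Camp are shown here because these 3 specific granule genes share a chromosome and a granule but not a difference between the pools. Capitals mark matches, on either strand, to TTGCNNAA (a core of the sites of C/EBP factors, which drive granule genes), to GAGGAA (a core of PU.1 sites) and to AGGTCA (a half-site of nuclear receptors).
Ltf, chr9:111019042-111019291, plus strand: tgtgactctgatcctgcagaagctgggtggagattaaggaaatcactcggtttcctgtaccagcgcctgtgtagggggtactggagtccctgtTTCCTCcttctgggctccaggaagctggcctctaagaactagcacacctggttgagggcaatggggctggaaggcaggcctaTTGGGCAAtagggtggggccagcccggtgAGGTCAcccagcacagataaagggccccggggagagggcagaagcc
Ngp, chr9:110419558-110419807, plus strand: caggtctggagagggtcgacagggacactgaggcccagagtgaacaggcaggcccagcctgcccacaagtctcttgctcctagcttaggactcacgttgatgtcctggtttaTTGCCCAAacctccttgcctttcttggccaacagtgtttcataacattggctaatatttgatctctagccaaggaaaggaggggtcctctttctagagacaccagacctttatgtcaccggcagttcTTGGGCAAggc
Camp, chr9:109849457-109849706, minus strand: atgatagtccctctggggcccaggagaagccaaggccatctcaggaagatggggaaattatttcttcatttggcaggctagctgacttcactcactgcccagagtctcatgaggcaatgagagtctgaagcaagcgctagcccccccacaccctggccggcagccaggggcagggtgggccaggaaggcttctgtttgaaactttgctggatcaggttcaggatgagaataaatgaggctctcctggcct
The same 8 bases, TTGCCCAA, were the match to TTGCNNAA in Ltf and in Ngp. They were read off the matches and not set beforehand, and their share over all promoter windows was not counted. In Ltf they lie on the opposite strand from -75 to -68, counted from the start site, and in Ngp they lie on the gene's strand from -138 to -131 and on the opposite strand from -11 to -4. The Camp window held no match to any of these 3 motifs. TTGCNNAA was present in 3 of the 8 members, the third being S100a9 with TTGCTTAA, and in 9.56% of 32851 promoter windows of the same length. GAGGAA was present in 5 of the 8 (Ltf, S100a8, Mpo, Elane and Csf3r) and in 23.3% of the windows. AGGTCA was present in 1 of the 8, Ltf, from -46 to -41, and in 14% of the windows. The motifs were chosen with the sequences in view, and a match is a description of letters and not of a bound site. Any part of these motifs in the differences between the pools was not tested.

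The other specific granule member, Camp, had 7.01 and 6.98 on the FD arrays, against 6.92 and 6.90 on the ND arrays. Its arrays did not overlap, but the difference of 0.08 was far from 1.5-fold. Camp encodes the precursor of the antimicrobial peptide CRAMP, and its protein belongs with Ngp to the cathelin-like proteins.

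The azurophil granule members Mpo and Elane were not called. Mpo, which makes hypochlorous acid from hydrogen peroxide, had 6.83 and 6.81 in FD, against 6.67 and 6.93 in ND. The FD arrays thus lay between the ND arrays, and the difference was 0.02. Elane, a serine protease, had 7.72 and 7.76 in FD, against 7.45 and 7.54 in ND. Its FD arrays lay above its ND arrays with a difference of 0.24, the largest positive one among the members.

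The calprotectin genes were not called either. S100a8 had 6.61 and 6.67 in FD, against 6.32 and 6.64 in ND, with a difference of 0.16. Leaving out ND array 1 gave 0.0010, and leaving out ND array 2 gave 0.32. S100a9 had 6.93 and 6.90 in FD, against 6.97 and 6.73 in ND, with a difference of 0.07. In both genes the diets overlapped, and the ND duplicates differed by 0.32 for S100a8 and by 0.24 for S100a9, more than the diet means. Csf3r had 7.21 and 7.21 in FD, against 7.07 and 7.05 in ND, so that its FD arrays lay above its ND arrays with a difference of 0.15.

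Among these 6 members, FD and ND arrays did not overlap in 3 (Camp, Elane and Csf3r), while they did not overlap in 63.5% of the 18211 probe sets. Their differences ranged from 0.02 to 0.24 with a median of 0.12, against a median of 0.03 over all 18211 probe sets. With cyclic loess the 6 had a median of 0.05 and 2 of them a negative difference. All 6 lay between the 5th percentile (-0.52) and the 95th percentile (0.37) of these probe sets. Ltf and Ngp lay below the 1st percentile, at -1.56.

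**Figure D2:**
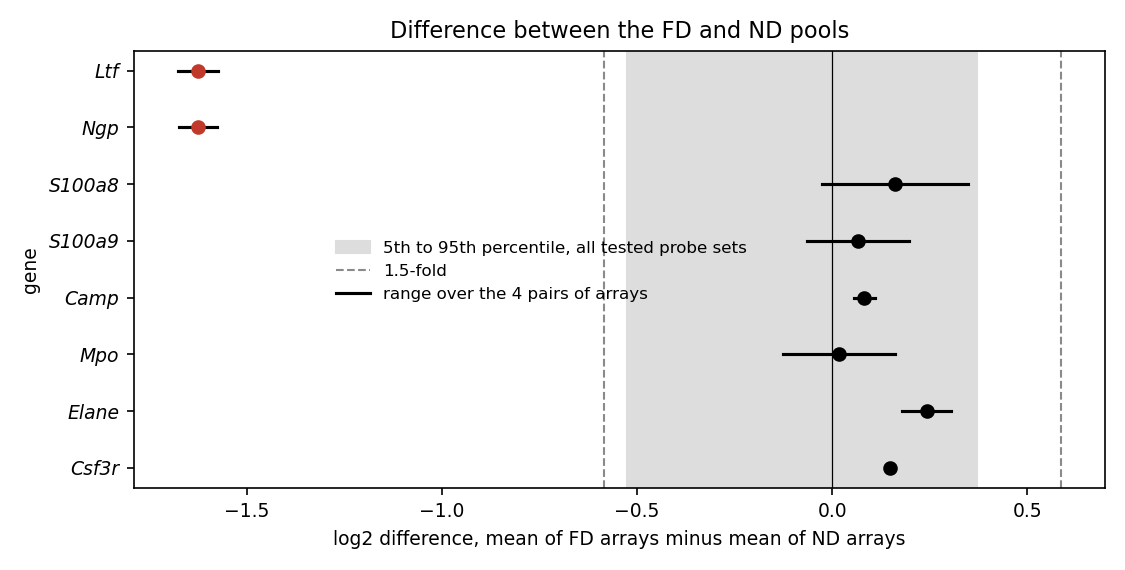
Log2 difference of each member, mean of the FD arrays minus mean of the ND arrays (x axis), for the 8 genes (y axis). Points are differences, red where called lower in FD, horizontal lines span the 4 pairs of 1 FD and 1 ND array, the grey band spans the 5th to the 95th percentile of 18211 probe sets and dashed lines mark 1.5-fold; Ltf and Ngp lie at -1.63 and -1.62 and the other 6 between 0.02 and 0.24.

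To set Ltf and Ngp against the other members, differences between the pools were compared and not levels, since levels of different probe sets are not on a common scale. The mean difference of Ltf and Ngp was -1.63, and it lay 1.74 below the median of the other 6 members. Taken from single pairs of 1 FD and 1 ND array, this gap lay between -1.78 and -1.74. The gap to a single member was smallest against Mpo, at -1.64 for Ltf and for Ngp, and largest against Elane, at -1.87 for both. Ltf and Ngp themselves differed in their differences by less than 0.01. These values describe 2 RNA pools, and the spread over pairs of arrays holds no spread between animals. The other 6 members lay between 6.32 and 7.76 on all arrays, below the array medians of 8.11 to 8.19. A probe set near background can show little decrease, and the deposited values do not tell which members are above background. Ngp, at 6.41 and 6.32 on the FD arrays, lay under the lowest FD value of the other 6 members (6.61). Its difference may therefore be limited in the same way, also where it is set beside that of Ltf.

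The search was then widened to the other genes of neutrophils, with 7 lists for their granules, surface receptors, cytosolic proteins, NADPH oxidase and transcription factors. Of 54 named genes of these lists, members included, 45 passed the filter on the level. Of these 45, 5 were lower in FD (11.1%, against 4.28% of all probe sets), namely Ltf, Ngp, Lcn2, Pilra and Bpi. A further 4 (8.89%, against 1.33%) were higher in FD, namely Prtn3, Serpinb1a, Itgam and Itgb2, and 36 were not called. The median difference of the 45 was 0.15. Ltf and Ngp are counted again here, and the lists were chosen with earlier results of these data known. These shares are therefore a description and not a test.

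In the specific granule list, 3 of 10 measured genes were lower in FD (against 4.28% of all probe sets) and none was higher (against 1.33%). The list had a median difference of 0.10 (0.06 without ND array 1, 0.05 with cyclic loess and -0.02 with the filter at 7). The third gene called lower, besides the members Ltf and Ngp, was Lcn2, which encodes a lipocalin that withholds iron from bacteria by binding their siderophores. Lcn2 had 10.01 and 10.04 in FD, against 11.78 and 11.93 in ND, a difference of -1.83. It is also made by epithelia and adipocytes. Among the 7 not called were Cybb, a subunit of the NADPH oxidase, with a difference of 0.49, and Slpi, a protease inhibitor, with 0.43. Cd177, a surface protein of neutrophils, had -0.15 and Olfm4 had 0.20. Mmp8, the neutrophil collagenase, lay between 5.01 and 5.25 over the 4 arrays and Chil3 between 5.14 and 5.81, both under the filter.

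In the azurophil granule list, 2 of 7 measured genes were higher (against 1.33% of all probe sets) and 1 was lower (against 4.28%). The list had a median difference of 0.09 (-0.01 without ND array 1, 0.20 without ND array 2, 0.14 without FD array 1, 0.05 without FD array 2, 0.01 with cyclic loess and 0.43 with the filter at 7). Serpinb1a, an inhibitor of neutrophil serine proteases, had 8.11 and 8.09 in FD, against 7.25 and 7.21 in ND, a difference of 0.87. Prtn3, the gene of proteinase 3, which lies beside Elane on chromosome 10, had 8.23 and 8.19 in FD, against 7.67 and 7.53 in ND. Its difference of 0.61 fell short of 1.5-fold without ND array 2 (0.54) and with cyclic loess normalization (0.57). Bpi, which binds bacterial endotoxin, had 6.04 and 6.18 in FD, against 6.67 and 6.81 in ND. Its difference of -0.63 fell short of 1.5-fold without FD array 1 or ND array 2 (-0.56 each) and with the arrays centred on their medians (-0.58). Ctsg, the gene of cathepsin G, was just under the filter, at 6.05 and 5.96 in FD and 5.89 and 6.08 in ND.

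In the gelatinase granule and secretory vesicle list, 2 of 8 measured genes were called, both higher in FD (against 1.33% of all probe sets). These were Itgam and Itgb2, the chains of the integrin Mac-1, which macrophages carry as well. Itgam had 9.61 and 9.54 in FD, against 8.98 and 8.89 in ND, and Itgb2 had 9.48 and 9.54 in FD, against 8.84 and 8.85 in ND. Their differences were 0.64 and 0.66. Mmp9, the gelatinase itself, had a difference of -0.22 and was not called, and the list had a median of 0.21.

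Of 8 measured surface receptors, 1 was lower in FD (against 4.28% of all probe sets). Pilra, an inhibitory receptor of myeloid cells, had 7.76 and 7.56 in FD, against 9.30 and 9.31 in ND, a difference of -1.64. The other 7, among them Csf3r, Selplg, Trem3 and Ly6g, had differences of 0.03 to 0.22. The most specific marker in the list, Ly6g, had 6.35 and 6.36 in FD, against 6.37 and 6.12 in ND. Cxcr2, the chemokine receptor that guides neutrophils into tissue, lay between 4.44 and 4.82 over the 4 arrays, under the filter. None of 5 measured NADPH oxidase genes, of 6 granulocyte transcription factors and of 3 cytosolic S100 and stefin genes was called. With 5.61% of all probe sets called, lists this short would hold few calls. Cybb at 0.49, Spi1 (PU.1) at 0.46 and Anxa1 at 0.37 had the largest differences in these lists. Cebpe, the C/EBP factor required for specific granules, had a difference of -0.07.

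**Figure D3:**
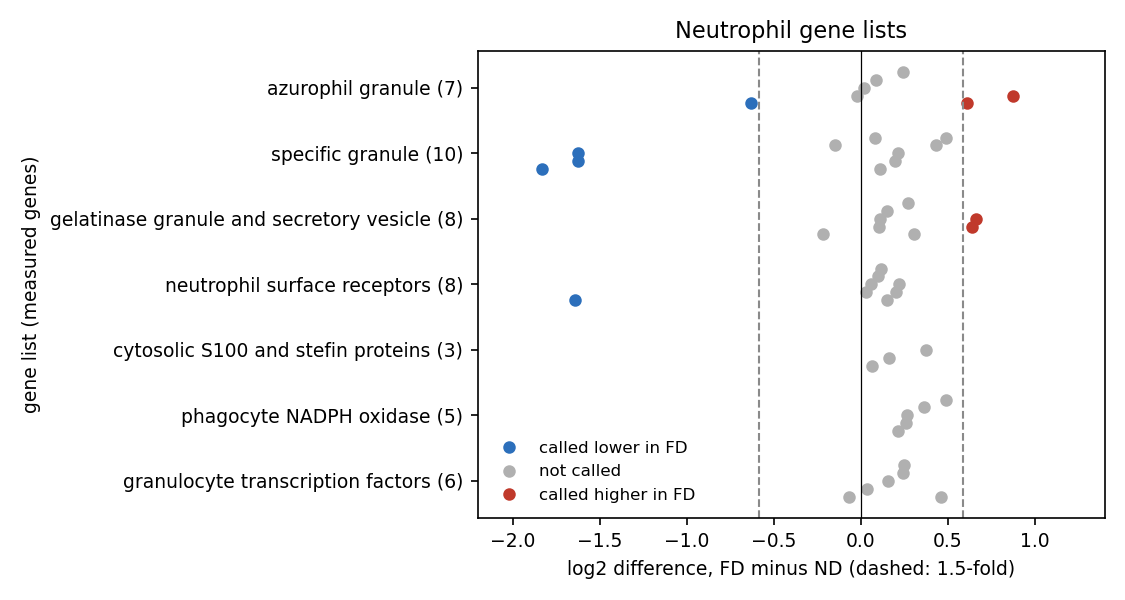
Log2 difference between FD and ND (x axis) of the measured genes in 7 neutrophil lists (y axis, number of measured genes in brackets). Each point is a gene, blue where called lower and red where called higher in FD, dashed lines mark 1.5-fold, and vertical scatter within a row has no meaning; Lcn2 at -1.83, Pilra at -1.64, Ltf at -1.63 and Ngp at -1.62 stand apart from the rest, which lie between -0.63 and 0.87.

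The genes whose 4-array pattern came nearest to Ltf and Ngp were searched among 17366 named genes at a mean of 6 or more, by the Euclidean distance between profiles centred on their own mean. The 6 nearest to Ltf were Car4 (carbonic anhydrase 4), Kcnk1 (a potassium channel), Esrp1 (an epithelial splicing regulator), Cdh1 (E-cadherin), Grb7 (an adaptor protein) and Pank1 (a kinase of coenzyme A synthesis), at distances of 0.05 to 0.08. Their log2 differences lay between -1.65 and -1.58. The 6 nearest to Ngp were Cldn23 (a claudin), Gfra1 (a receptor for the growth factor GDNF), Capn3 (a calpain), Pilra, Car4 and Kcnk1, at distances of 0.07 to 0.09. Their differences lay between -1.69 and -1.63. Car4 and Kcnk1 stood in both lists. Ltf and Ngp were 0.14 apart, which placed Ngp 15th from Ltf and Ltf 20th from Ngp. With 4 arrays of 2 pools, nearness in pattern means little more than a like difference with little scatter between duplicates.

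Markers of epithelium and of the epididymis, which adjoins the gonadal fat pad of males, were in part lower in FD as well. Over all probe sets, 4.28% were called lower and 1.33% higher. Of 10 measured epithelial markers, 7 were lower in FD and none was higher, with a median difference of -1.25, among them Elf3 at -1.70, Krt18 at -1.67, Cdh1 at -1.65 and Esrp1 at -1.59. Of the other 3, which were not called, Krt19 had a positive difference of 0.22. The mean log2 level over this list was 9.18 to 9.22 on the FD arrays and 10.22 to 10.24 on the ND arrays. Of 14 measured epididymis markers, 8 were lower in FD and none was higher, with a median of -1.33 (-0.81 without a filter on the level and -3.07 with the filter at 7). The called genes ranged from Adam7 at -7.09, Rnase9 at -5.95, Pate2 at -5.78 and Ces5a at -4.85 to Lcn5 at -1.16. Positive differences were found in 4 that were not called, Teddm1a at 0.24, Lcn9 at 0.16, Lcn8 at 0.15 and Cst11 at 0.13. The mean over all 16 named genes of that list was 6.81 to 6.84 on the FD arrays and 8.76 to 8.80 on the ND arrays. Rnase10 and Gpx5 stayed under the filter on the mean level, and Adam7 (5.48 and 5.61) and Rnase9 (4.60 and 4.69) were under 6 on the FD arrays. The part of these cells in the values of Ltf and Ngp was not tested.

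Among 11 measured antimicrobial proteins of epithelia, 3 were lower in FD, namely Defb1, Lcn2 and Ltf. Over all probe sets, 4.28% were called lower and 1.33% higher. Defb1, a beta-defensin, had 6.49 and 6.09 in FD, against 8.23 and 8.26 in ND, a difference of -1.96. In contrast, Lyz1, a lysozyme, was higher in FD, with 10.98 and 11.01 in FD, against 9.77 and 10.03 in ND, and a difference of 1.10. Its close paralog Lyz2, the lysozyme of macrophages, had 0.21 and was not called, and probes of these paralogs may pick up each other's transcripts. Pigr, which carries antibodies across epithelia, had a difference of 0.53 that reached 1.5-fold without FD array 2 (0.62) or ND array 1 (0.72).

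No measured marker of macrophages, monocytes, eosinophils, basophils or mast cells was called lower in FD. Of 14 measured macrophage markers, 2 were higher in FD, C1qc at 0.63 and C1qb at 0.59, and none was lower, although without ND array 1 neither was called (0.47 and 0.45) and without FD array 2 C1qb was not (0.58). The median of that list was 0.36. Of 5 measured monocyte markers, 2 were higher, Vcan at 0.69 and Fn1 at 0.64 (0.53 and not called without ND array 1). The other 3 were not called, F13a1 at 0.38, Ccr2 at 0.36 and Cx3cr1 at -0.12. None of 9 measured markers of eosinophils, basophils and mast cells and none of 4 of erythrocytes was called. Over all probe sets 5.61% were called, so that few calls would be seen in lists this short. The tissue itself was recognised by 9 adipocyte markers, which lay between 12.08 and 13.87 on all arrays. None of these was called. The median of the adipocyte list was 0.14, or 0.04 without ND array 1 and 0.24 if ND array 2 was left out.

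**Figure D4:**
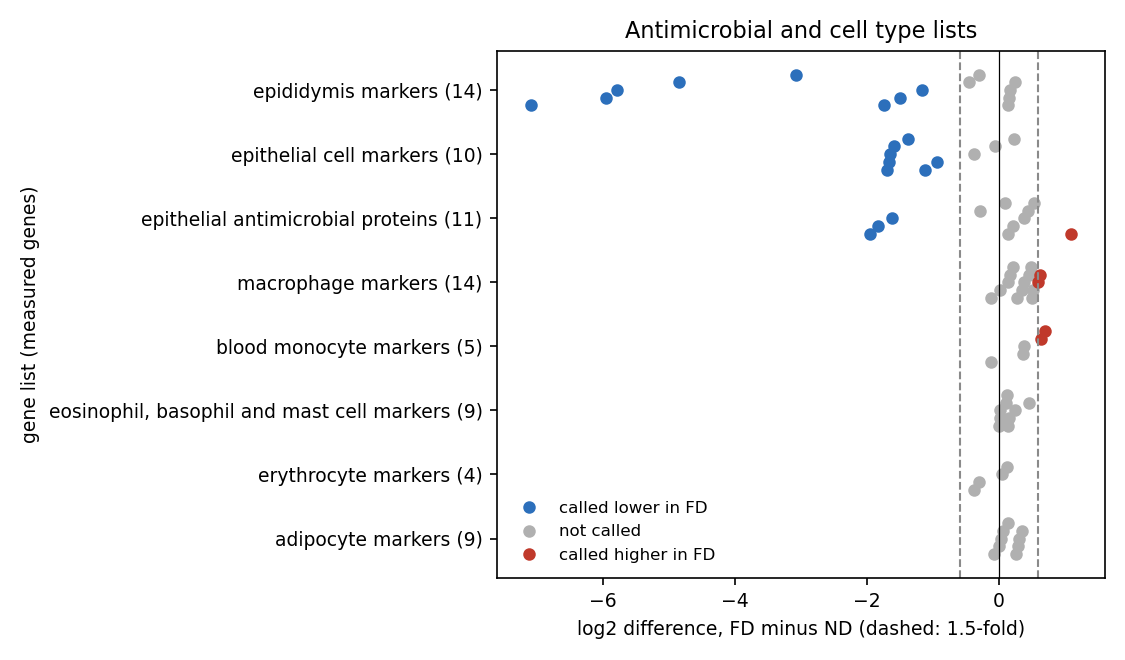
Log2 difference between FD and ND (x axis) of the measured genes in 8 lists of antimicrobial proteins and cell types (y axis, number of measured genes in brackets). Each point is a gene, blue where called lower and red where called higher in FD, and dashed lines mark 1.5-fold. In FD, 8 of 14 epididymis and 7 of 10 epithelial markers are lower, against 4.28% of all probe sets. No marker of adipocytes, erythrocytes or of eosinophils, basophils and mast cells is called.

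The genes beside the members were read in RefSeq order, taking the 3 nearest genes on either side that are named on the array. None of the 6 neighbours of Ltf was called, with differences of -0.09 to 0.33, and none of the 6 neighbours of Ngp, with differences of -0.30 to 0.12. Between Ngp and Ltf lie 19 genes of the array and between Camp and Ngp lie 9, and none of them was called. Camp, in contrast, had called neighbours although it was not called itself. Spink8, the gene of a Kazal-type protease inhibitor, is 1 of the 8 epididymis markers called lower in FD. It had 11.75 and 11.61 in FD, against 13.17 and 13.21 in ND, a difference of -1.51. Nme6 had a difference of -0.64. S100a6 near S100a8 and S100a9 was higher, at 0.67 (0.50 and not called without ND array 1), as was Prtn3 beside Elane. No neighbour of Mpo and of Csf3r was called. Of the 42 neighbours that are not members, 2 were called higher and 2 lower, while 5.61% of all probe sets were called. Among so few genes, no call beside Ltf and Ngp is near that share.

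**Figure D5:**
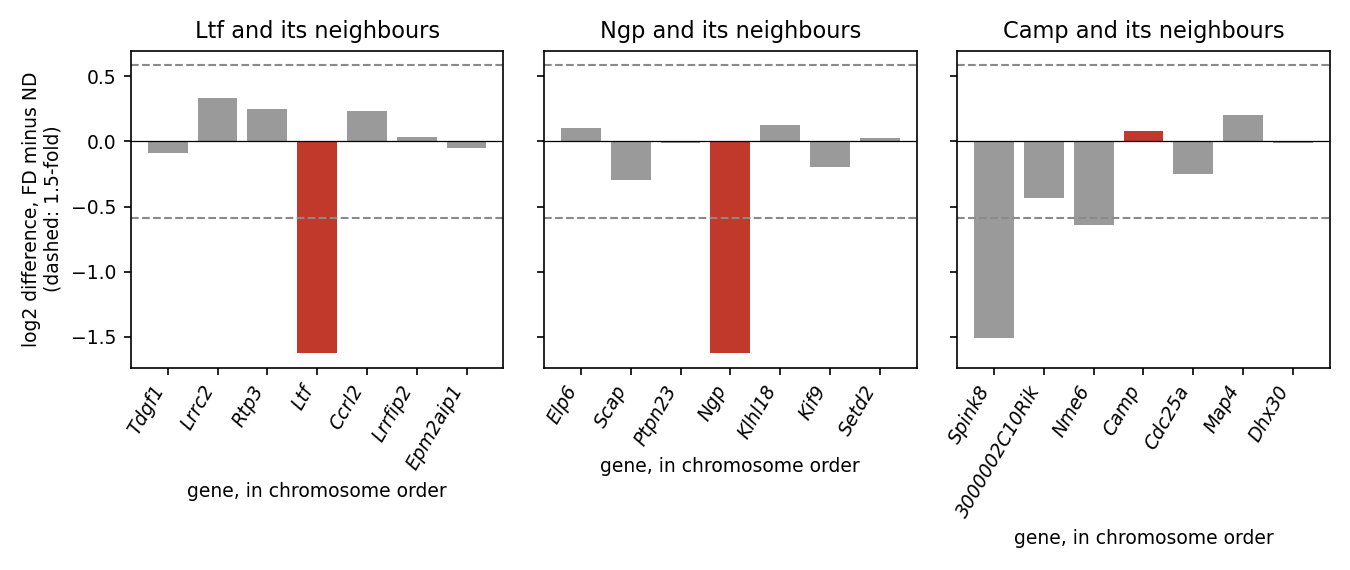
Log2 difference between FD and ND (y axis) of Ltf, Ngp and Camp (red) and of the 3 nearest genes of the array on either side (grey), in chromosome order (x axis). Dashed lines mark 1.5-fold; Ltf and Ngp stand alone at -1.63 and -1.62 among neighbours between -0.30 and 0.33, while Spink8 at -1.51 and Nme6 at -0.64 lie beside Camp at 0.08.

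Genes of the transferrin family, of transferrin receptors and of lactoferrin binding were read as a last group. Of 6 measured genes in this group, Ltf and Tfrc were lower (against 4.28% of all probe sets) and none was higher (against 1.33%). Tfrc, the transferrin receptor that takes up iron, had 9.76 and 9.70 in FD, against 10.62 and 10.78 in ND, a difference of -0.97. Trf, the gene of serum transferrin, had 0.22, Tfr2, a second transferrin receptor, had 0.27, Meltf had 0.23 and Lrp1, a receptor that takes up lactoferrin, had 0.18, and none of these was called. Among relatives of Ngp and Camp, no cystatin gene was called, with Cst7 at 0.14, Cst11 at 0.13, Cstb at -0.09 and Cst3 at 0.06.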

How the data were processed

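The log2 expression values were deposited by the authors, who summarised the arrays with RMA as the submitters' processing notes name it. For the software version and the genome build, nothing is given in the sources used here. No further normalization was applied to the 21225 probe sets, of which 986 are unnamed here. All 20239 symbols matched RefSeq (GRCm38.p6) by Entrez number, and none changed. RefSeq gave gene order and promoter windows, and its coordinates refer to the start sites and not to the probes. Precision about the diets is limited by the single RNA pool of each, and that within a pool by its 2 arrays.

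FD means were compared with ND means by the rule of size given with the results. The arrays of a pool are technical duplicates, so no p-value was computed. The rule was tested on simulated arrays. The rule allowed naming the members, the called genes and the 4 largest differences of each list, of which only some are named, the 6 nearest patterns of Ltf and Ngp, and 3 neighbours on each side. The members, the 20 lists and the motifs were chosen with earlier results of these data known. Spi1, Cebpe, Ctsg, Chil3, Cxcr2, Ly6g, Lyz2, Trf, Lrp1 and Cst3 are named in their lists for their roles, after their values were seen. Cx3cr1 is likewise named after its value was seen. The alternatives numbered 12. Calculations used Python 3.11.15 and R 4.3.3, with limma 3.58.1 for cyclic loess.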

Additional observations from a re-analysis of the deposited data

How the results depend on the processing

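Ltf and Ngp were called lower in FD, and no other member was called, under all 12 alternatives. The differences were -1.68 to -1.57 for Ltf and -1.69 to -1.58 for Ngp. Settings that change only the filter or the fold threshold cannot change these differences. Dropping the filter, filtering on the higher diet mean and the 1.3-fold threshold could not remove the calls of Ltf and Ngp. Setting diet means under 6 to 6 left every member unchanged, since all their diet means were above 6. With the filter at 7, only 4 members (Ltf, Ngp, Elane and Csf3r) were measured, so the others could not be called. The gap of Ltf and Ngp to the median of the other 6 members was -1.70 with cyclic loess and between -1.77 and -1.73 with 1 array left out. Genes of the members and the 7 neutrophil lists called higher in FD numbered 4 as reported, 7 at 1.3-fold, 0 at 2-fold and 3 with cyclic loess or without ND array 2, and those called lower numbered 4 or 5. Over all probe sets, 869 were higher and 1333 lower at 1.3-fold, 41 and 386 at 2-fold, and 242 and 780 at 1.5-fold. The signs of 2 members that were not called were not fixed. Mpo was at -0.12 without ND array 1 and at -0.06 with cyclic loess, and S100a9 at -0.05 without ND array 2 and at -0.01 with cyclic loess. Centring the arrays on their medians moved the median of all probe sets to 0.08. No paired analysis was possible because the replicate numbers only name duplicate arrays of a pool and no test was run. The deposited values hold no detection calls, so a member near 6 cannot be said to be above background.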

Other observations

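Genes that call neutrophils into tissue were measured only in part. Of 8 attractants and growth factors, 5 passed the filter on the level, and none was higher or lower in FD. Over all probe sets 5.61% were called, and no call among 5 genes is near that share. Csf3, which encodes G-CSF, had 7.30 and 7.39 in FD, against 7.33 and 7.63 in ND, a difference of -0.14. Leaving out ND array 2 gave 0.01, and leaving out ND array 1 gave -0.29. Cxcl1 had a difference of -0.06, Il1b of 0.07 and Il17a of 0.23, while Cxcl2, Cxcl3 and Cxcl5 stayed under the filter.

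In the S100 family, 1 of 14 measured genes was higher in FD, S100a6 (0.50 and not called without ND array 1), and none was lower. Over all probe sets, 1.33% were called higher and 4.28% lower. S100a4, a marker of fibroblasts and macrophages, had 7.29 and 7.22 in FD, against 6.69 and 6.73 in ND, a difference of 0.54 that was called with each array centred on its median (0.59). S100a5 had 0.38 and S100a3 had 0.30. The family had a median difference of 0.19, with S100a8 at 0.16 and S100a9 at 0.07.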
